A study of Mus musculus with 2 samples.

Results

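The miR-103 and miR-107 genes of the mouse are Mir103-1, Mir103-2 and Mir107, each of which lies inside a pantothenate kinase (Pank) gene. They were taken by identifier from the table of annotated miRNA genes, and all 3 of the 3 were found among its 2202 rows. Small RNA of the hippocampus was sequenced from male B6CASTF1/J mice, an F1 hybrid that carries a C57BL/6J and a CAST/EiJ genome, at 14 days of age. No genotype, treatment or second condition was set against them, so the only group was hippocampus, with 2 biological replicates. The tissue type of both samples is given as layer of hippocampus. Each label names 3 males by number, with different numbers in the 2 replicates, but the donor identifier is shared by both. Part of the spread between the libraries may therefore be technical. Replicate 1 had 3793934 counts on miRNA genes and replicate 2 had 2554997. Levels are given as CPM, counts per 1000000 counts on miRNA genes.

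Pantothenate kinases catalyse the rate-controlling step by which vitamin B5 is turned into coenzyme A, the carrier of acyl groups in fat and sugar metabolism. The miRNAs in their introns form a family with a shared seed, the stretch near the 5′ end that pairs with target messages. They are known for lowering insulin sensitivity in liver and fat through caveolin-1, for repressing Dicer, the enzyme that cuts miRNA hairpins, and, for miR-107 in the brain, for targeting the protease BACE1. A hairpin gives a mature miRNA from either arm, called 5p and 3p. The 3p arm is the one usually named miR-103 or miR-107.

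The mature sequences come from RefSeq on GRCm38.p6 and matched for all 3 genes. They are shown because they set which reads can be told apart. Capitals mark the seed, bases 2 to 8 from the 5′ end.
miR-103-3p, from Mir103-1 and Mir103-2: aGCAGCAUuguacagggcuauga
miR-107-3p: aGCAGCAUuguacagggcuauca
miR-103-1-5p: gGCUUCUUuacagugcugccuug
miR-103-2-5p: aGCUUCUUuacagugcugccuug
miR-107-5p: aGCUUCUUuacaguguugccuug
The 3p arms all carry the seed GCAGCAU, and the 5p arms all carry GCUUCUU. The 3p arm was the same in Mir103-1 and Mir103-2 over all 23 bases. From miR-103-3p to miR-107-3p there was 1 substitution, G22C, counted from the 5′ end of the mature miRNA. The first 21 bases were therefore common to the 3p arms of all 3 genes. The 5p arms of Mir103-1 and Mir103-2 differed by G1A alone. From miR-103-2-5p to miR-107-5p the change was C16U.

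The whole hairpins show how the genes differ outside the arms. Capitals mark the 5p and then the 3p arm.
Mir103-1: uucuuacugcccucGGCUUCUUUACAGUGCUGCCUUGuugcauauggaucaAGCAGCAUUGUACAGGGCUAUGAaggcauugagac
Mir103-2: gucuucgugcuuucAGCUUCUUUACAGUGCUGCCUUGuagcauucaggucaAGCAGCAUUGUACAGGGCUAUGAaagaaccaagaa
Mir107: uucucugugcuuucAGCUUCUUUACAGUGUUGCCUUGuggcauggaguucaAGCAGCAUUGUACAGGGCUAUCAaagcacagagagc
In all 3 hairpins the 5p arm filled positions 15 to 37 and the 3p arm positions 52 to 74. Mir103-2 and Mir107 were the closest pair over the whole hairpin, with 73 of 86 compared positions the same (84.9%). Mir103-1 shared 69 of 86 positions (80.2%) with each of the others. Between Mir103-1 and Mir103-2 the arms held 1 of the 17 differences, and the loop and the flanks held the rest. The longest stretch common to these 2 hairpins was 27 bases, and Mir107 shared at most 24 with either. The folding energy predicted for the hairpin was -41.2 kcal/mol for Mir107, -35.8 for Mir103-1 and -31.8 for Mir103-2. Per base, 17.3% of the 2202 annotated hairpins were predicted to be more stable than Mir107, 33.7% more than Mir103-1 and 49.6% more than Mir103-2.

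**Figure D1:**
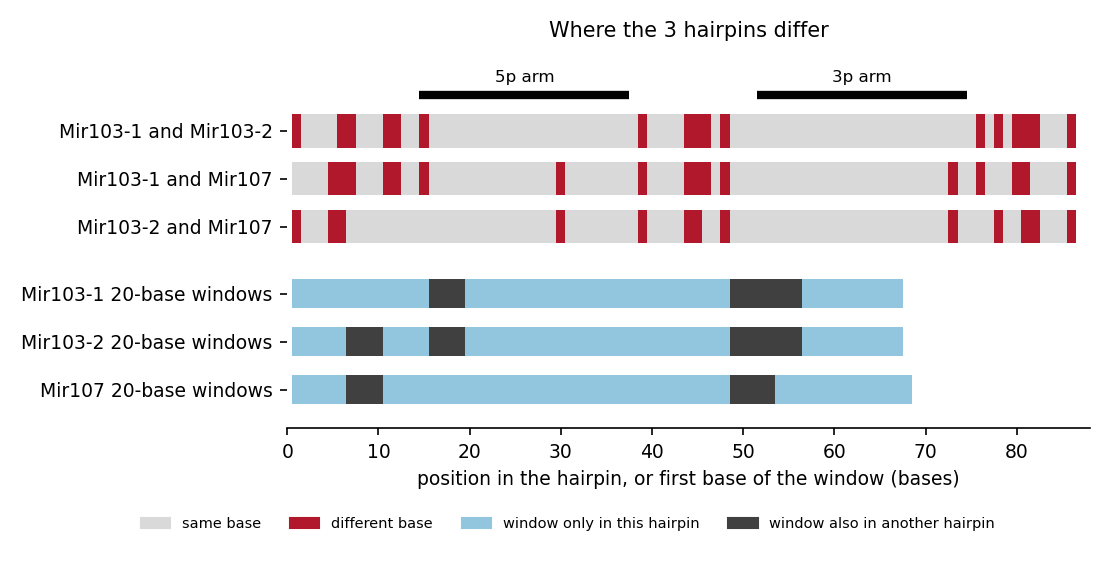
Position along the hairpin in bases, with the arms as black bars on top. The upper 3 rows compare hairpins in pairs, red where the bases differ, and the lower 3 rows mark by first base whether each window of 20 bases occurs in another annotated hairpin (dark) or not (blue). Differences cluster in the loop and flanks, and every dark window overlaps an arm.

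Reads that map to several places were set aside in the deposited tables and given to no gene, so the sequences fix what each gene could be counted from. Of the windows of 20 bases along each hairpin, 12 of 67 in Mir103-1, 16 of 67 in Mir103-2 and 9 of 68 in Mir107 also stood in another annotated miRNA hairpin. The only hairpins they matched were the others of this family. A read that starts at the first base of the 3p arm is the same in both Mir103 genes at every length from 18 to 23 bases. From the same start, a Mir107 read of 21 bases or fewer is also the same in both Mir103 genes, and one of 22 or 23 bases is found in Mir107 alone. On the 5p arm, reads of 18 to 23 bases from the first base are particular to each hairpin by sequence, while those that start at the second base are common to Mir103-1 and Mir103-2. The search covered annotated hairpins on the C57BL/6J reference, and CAST/EiJ variants and the rest of the genome were not examined here.

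All 3 genes lie in introns on the strand of their host in mm10, by the GENCODE M21 annotation. Mir103-1 (ENSMUSG00000065553.1) is at chr11:35782396-35782481 on the plus strand in Pank3. Mir103-2 (ENSMUSG00000065563.1) is at chr2:131288052-131288137 on the plus strand in Pank2. Mir107 (ENSMUSG00000065594.1) is at chr19:34820687-34820773 on the minus strand in Pank1. The place is alike in a coding transcript of each host. Each host has a protein-coding transcript of 7 exons, and the hairpin is in intron 5 of it in Pank3, Pank2 and Pank1. In these transcripts the hairpin begins 688 bases after the upstream exon in Pank3, 454 in Pank2 and 326 in Pank1. The introns around it differ in length, at 1740 bases in Pank3, 5801 in Pank2 and 7282 in Pank1. Other annotated transcripts number the intron differently, from intron 2 to intron 7 in Pank2 and intron 4 in a Pank1 transcript of 6 exons. The distance from the start of the 7-exon transcript (the longer of 2 for Pank1) was 12912 bases for Mir103-1, 25552 for Mir103-2 and 58682 for Mir107. No gene is annotated on the opposite strand at any of the 3, and all had 0 counts there in both libraries. Messages of the Pank genes were not measured in these small RNA libraries.

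**Figure D2:**
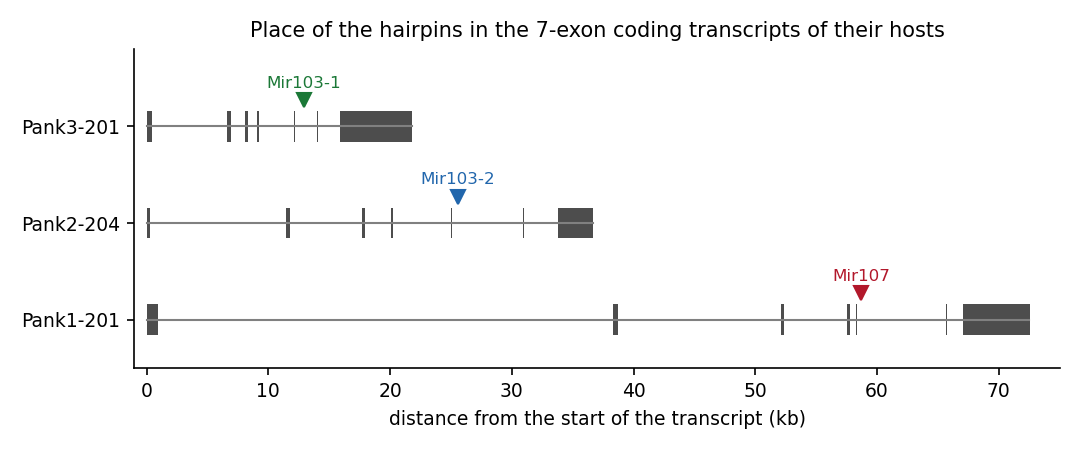
Exons (dark blocks, with a minimum drawn width of 0.12 kb) of a 7-exon coding transcript of each host, by distance from the transcript start in kb, with a triangle at each hairpin. The hairpin follows the exon 5 block in Pank3, Pank2 and Pank1, while the distance from the start grows from 12912 to 58682 bases.

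Mir107 took nearly all counts that were assigned to the family. It had 9612 counts in replicate 1 and 2049 in replicate 2, which is 2534 and 802 CPM. Its mean was 1668 ± 1224 CPM (SD, n = 2), rank 85 of 2202 genes, with rank 66 in replicate 1 and 116 in replicate 2. The 95% exact Poisson interval of its level was 2483 to 2585 CPM in replicate 1 and 768 to 837 CPM in replicate 2. Intervals of counts and shares here cover counting error alone. They treat each read as independent, which amplified reads may not be. The libraries lay much farther apart than counting error allows.

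The 2 genes of miR-103 were low. Mir103-2 had 112 counts in replicate 1 and 52 in replicate 2, or 29.5 and 20.4 CPM, with exact Poisson intervals of 24.3 to 35.5 and 15.2 to 26.7 CPM. Its mean was 24.9 ± 6.48 CPM (SD, n = 2), rank 271. Mir103-1 had 42 counts in replicate 1 and 6 in replicate 2, or 11.1 and 2.35 CPM, with intervals of 7.98 to 15.0 and 0.862 to 5.11 CPM. Its mean was 6.71 ± 6.17 CPM (SD, n = 2), rank 349. For replicate 2, 0 counts would allow a level of up to 1.17 CPM (3 counts of the total), so Mir103-1 lay close to what this library could detect.

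The order Mir107, Mir103-2, Mir103-1 held in both libraries, and the levels of neighbours in that order did not overlap. The lower value of Mir107 (802 CPM) was above the higher value of Mir103-2 (29.5 CPM), and the lower value of Mir103-2 (20.4 CPM) was above the higher value of Mir103-1 (11.1 CPM). The hairpins are 86, 86 and 87 bases long, so the order is the same per base. The counts at Mir103-1 and Mir103-2 are not the level of miR-103, since reads of their common 3p arm could not be given to either gene. These 2 genes together held 154 and 58 counts in replicates 1 and 2, beside 3629983 and 2714981 reads set aside for mapping to several places. How many of those reads were miR-103 was not analysed here.

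**Figure D3:**
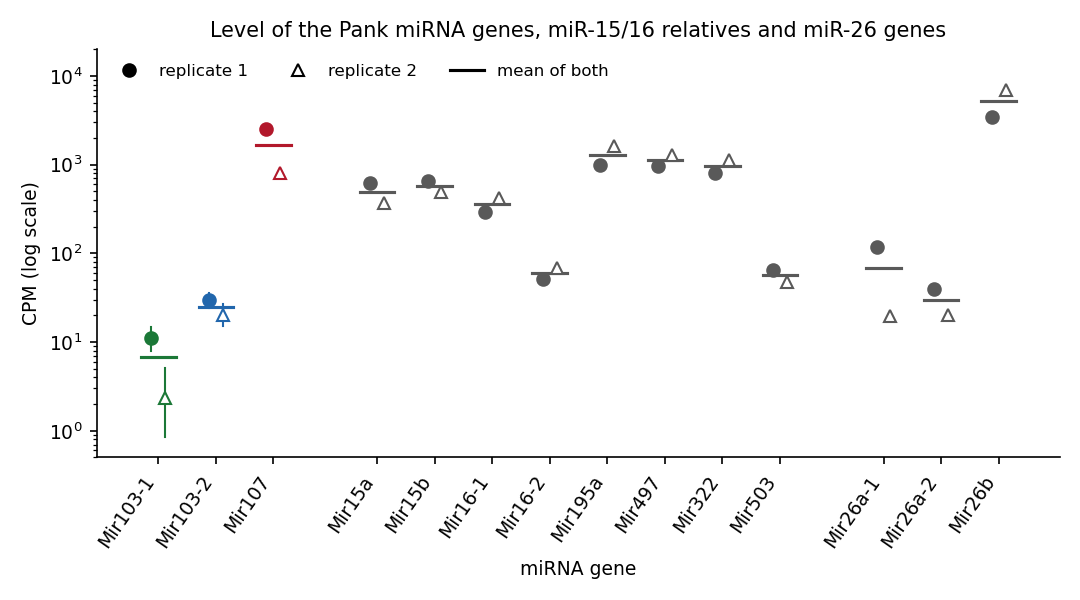
CPM on a log scale of the 3 Pank miRNA genes (coloured), 8 miR-15/16 relatives and 3 miR-26 genes. Circles are replicate 1, open triangles replicate 2, horizontal bars the mean, and vertical lines on the coloured genes the 95% exact Poisson interval. Mir107 lies above both Mir103 genes in each library, as Mir26b lies above both Mir26a genes.

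Within the family, Mir107 held 98.4% of counts in replicate 1 (9612 of 9766, 95% exact Clopper-Pearson interval 98.2 to 98.7) and 97.2% in replicate 2 (2049 of 2107, interval 96.5 to 97.9). The intervals did not overlap, and the mean was 97.8% ± 0.831 (SD, n = 2). Counts of Mir107 were 62.4 times those of both Mir103 genes together in replicate 1 and 35.3 times in replicate 2. These values describe assigned counts and not the make-up of the family. From the first base of the 3p arm, reads of the Mir103 genes are common to both at 18 to 23 bases and were counted for neither. Mir107 reads of 22 or 23 bases from that base could be counted. The split between the Mir103 genes leaned to Mir103-2. Mir103-1 held 27.3% of their counts in replicate 1 (42 of 154, exact interval 20.4 to 35.03) and 10.3% in replicate 2 (6 of 58, exact interval 3.89 to 21.2), on average 18.8% ± 11.97 (SD, n = 2). Those intervals overlap narrowly. Mir103-2 thus had 2.67 times the counts of Mir103-1 in replicate 1 (exact interval 1.86 to 3.90) and 8.67 times in replicate 2 (3.72 to 24.7).

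**Figure D4:**
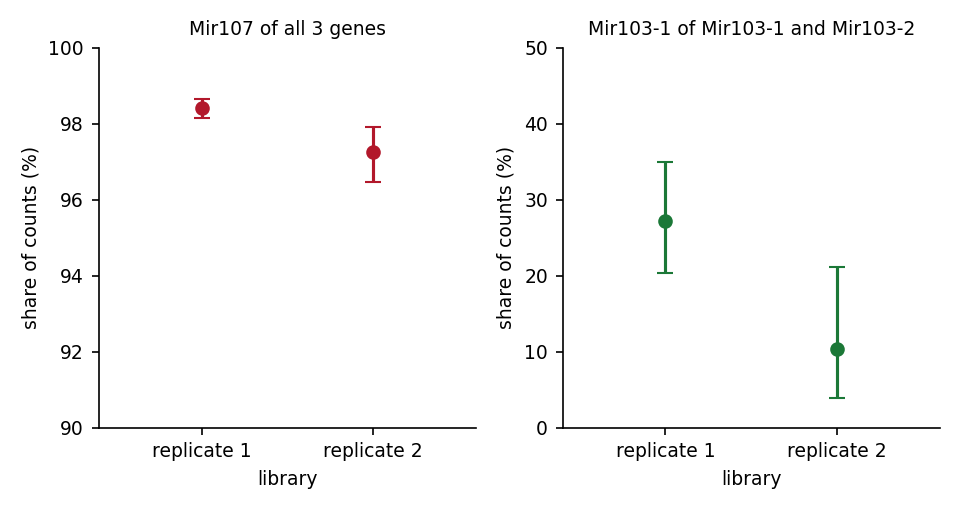
Share of counts in percent in each library, with 95% exact Clopper-Pearson intervals, of Mir107 among all 3 genes (left, axis from 90%) and of Mir103-1 among both Mir103 genes (right). Mir107 holds 98.4% and 97.2%, and Mir103-1 holds 27.3% and 10.3%. Shares are of assigned counts, which leave out reads of the 3p arm common to both Mir103 genes.

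Between the libraries all 3 genes were higher in replicate 1. The ratio of replicate 1 to replicate 2 was 4.71 for Mir103-1 (95% exact interval 1.99 to 13.6), 3.16 for Mir107 (3.01 to 3.32) and 1.45 for Mir103-2 (1.04 to 2.06). On the scale of log2(CPM + 0.5) the differences were 2.02, 1.66 and 0.53. With counts split by library depth in a two-sided exact binomial test, adjusted over 507 genes by Benjamini-Hochberg, Mir103-1 passed with adjusted p = 0.000118 and Mir103-2 narrowly with adjusted p = 0.0496. For Mir107 the base-10 logarithm of the unadjusted p of the exact test was -607. By the same test 52.1% of the 507 genes differed between the libraries, and 25.2% of the 507 were higher in replicate 1, so that a call says little by itself. The test covers counting error only and compares these libraries, not conditions. The call of Mir103-2 was lost with DESeq2 size factors (adjusted p = 0.059 in the exact binomial test). It was lost too without the 10 most abundant genes in the denominator (adjusted p = 0.111) and in the column that ignores strand (adjusted p = 0.0605).

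With a spread between replicates added, none of the 3 genes passed, but this test could not decide the question. Its dispersion took the 2 libraries as replicates, so the difference under test was itself counted as spread and few calls were possible. In edgeR's exact negative binomial test with its common dispersion, estimated from these same libraries, adjusted p was 0.874 for Mir103-1, 0.874 for Mir107 and 1.0 for Mir103-2, and 0.394% of the 507 genes tested passed. The unadjusted p of this exact test was 0.0364, 0.0396 and 0.54. Of 328 genes whose mean reached 10 CPM, 18 (5.49%) were at least as far apart between the libraries as Mir107, and 123 (37.5%) at least as far apart as Mir103-2. Mir107 was thus among the more variable of the abundant genes, and Mir103-2 was not.

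**Figure D5:**
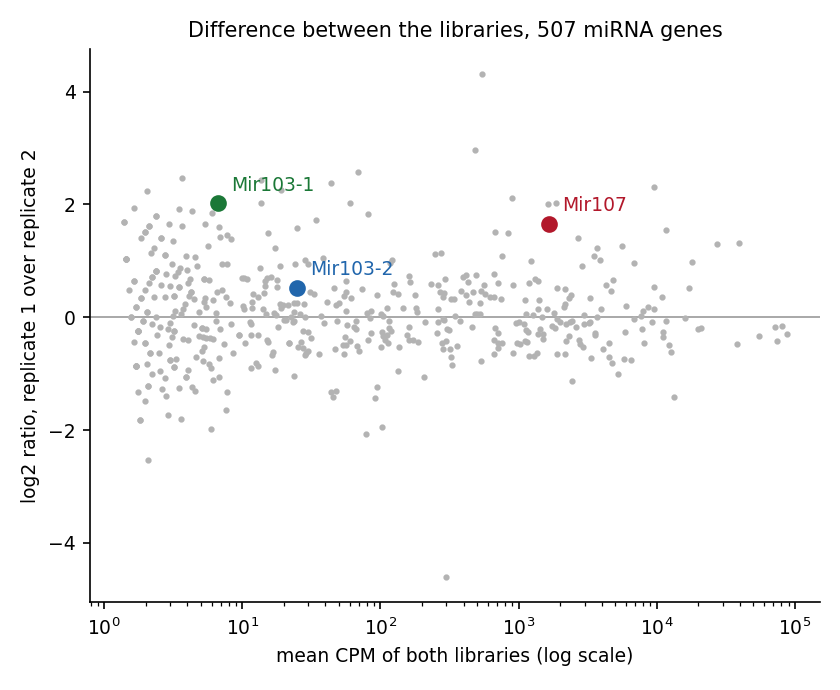
Log2 ratio of replicate 1 over replicate 2 against mean CPM (log scale) for 507 miRNA genes with at least 10 counts in sum (grey), with the Pank miRNA genes coloured. Mir103-1, Mir107 and Mir103-2 lie at 2.02, 1.66 and 0.53, above the zero line.

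Other quantities moved between the same libraries. Reads that could not be mapped made up 41.3% of replicate 1 and 20.7% of replicate 2, and multimapping reads 26.3% and 37.5%. Per 1000000 reads of any kind, Mir107 stood at 697 and 283, Mir103-2 at 8.12 and 7.18, and Mir103-1 at 3.05 and 0.829. On that scale, chosen after seeing the data, the log2 ratio of Mir103-2 fell from 0.53 to 0.17 (adjusted p = 0.626 in the exact binomial test), while Mir107 stood at 1.30 and Mir103-1 at 1.42. Per mapped read, also chosen after seeing the data, Mir103-2 stood at 0.59 (adjusted p = 0.0239 in the same test), Mir107 at 1.73 and Mir103-1 at 1.88. Of 3 oligodendrocyte markers (Mir219a-1, Mir219a-2 and Mir338), 2 passed the exact binomial test as higher in replicate 1, beside 25.2% of the 507 genes. Mir219a-1 did not pass, at 16.9 and 19.2 CPM in replicates 1 and 2. The 3 markers summed to 4060 and 1247 CPM, of which Mir219a-2 held 3014 and 743, with none at 0. Of the 13 neuronal markers tested, 4 passed the exact binomial test as higher in replicate 1 and 5 as higher in replicate 2, beside 25.2% and 26.8% of the 507 genes. All 16 on that list summed to 52020 and 37153 CPM. Most of both sums came from Mir132 (17266 and 5947 CPM) and Mir149 (20240 and 14223 CPM). The sums therefore give no direction for the list. The part of these shifts in the ratios of the Pank miRNA genes was not tested. In bulk tissue, fewer cells of a type and less RNA per cell cannot be told apart.

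The label of the tissue was checked against the neuronal list. Of its 16 genes in the table, 12 reached 2 CPM in both libraries, beside 19.3% of all 2202 genes. Mir149 led at 20240 and 14223 CPM. The neuron-defining miR-124 genes were near 0, with 12 and 4 counts at Mir124a-1, 5 and 1 at Mir124a-2, and 0 and 4 at Mir124a-3, in replicates 1 and 2. These are copies of the same miRNA, as the Mir103 genes are. Of the 5 muscle genes, Mir206 stood at 27.4 and 35.6 CPM, and Mir1a-1, Mir1a-2, Mir133a-1 and Mir133a-2 were listed at 0. By name the latter are copies of miR-1a and miR-133a, and reads of a common arm could be given to neither copy. No mature sequence was matched for Mir1a-2, Mir133a-1 or Mir133a-2, so a common arm was not checked here. The 0 was therefore not used to judge the tissue. The liver miRNA gene Mir122 stood at 20.6 and 29.7 CPM.

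The genes with levels most like each of the 3 were found by the larger of the 2 absolute differences of log2(CPM + 0.5) over the 2 libraries. Nearest to Mir107 were Mir219a-2, at 3014 and 743 CPM (larger difference 0.25), and Mir222, at 2621 and 649 CPM (0.31). Nearest to Mir103-2 were Mir6769b, at 27.1 and 22.7 CPM (0.15), and Mir3080, at 25.6 and 21.5 CPM (0.20). Nearest to Mir103-1 were Mir3058, at 9.75 and 2.35 CPM (0.17), and Mir7019, at 10.5 and 3.13 CPM (0.35). With 2 libraries this likeness is of levels only.

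The miR-15/16 family is the closest by seed. Its mature miRNAs, which restrain the cell cycle, hold the same 6 bases AGCAGC one place further in than miR-103 and miR-107 do, so that the seeds overlap out of register. In the sequences below capitals mark those 6 bases.
miR-15a-5p: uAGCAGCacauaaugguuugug
miR-16-5p, from Mir16-1 and Mir16-2: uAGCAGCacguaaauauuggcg
miR-195a-5p: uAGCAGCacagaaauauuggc
miR-322-5p: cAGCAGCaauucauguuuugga
Of 9 such genes in the table, Mir195b was at 0. The other 8 were detected at 2 CPM or more in both libraries, beside 19.3% of all 2202 genes. Their summed level was 4446 CPM in replicate 1 and 5394 in replicate 2, beside 2574 and 825 CPM for the 3 Pank miRNA genes. Reads common to several genes, such as those of miR-103-3p and miR-16-5p, are missing from these sums. The sums therefore do not rank the families. Mir195a at 1301 ± 427 CPM, Mir497 at 1117 ± 231 CPM and Mir322 at 966 ± 215 CPM (SD, n = 2) led the relatives. In replicate 1 Mir107 was above all of them, and in replicate 2 it was below these 3. The relatives split between the libraries, with 3 of 8 higher in replicate 1 (Mir15a, Mir15b and Mir503) and 5 of 8 higher in replicate 2 by the exact binomial test. Over the 507 genes those calls made up 25.2% and 26.8%. Their median log2 ratio was -0.42, beside 1.66 for the Pank miRNA genes and 0.02 for all 507 genes tested.

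Genes that share a mature sequence with another gene did not all stand low. In the miR-26 family, also in introns of related hosts (Ctdspl, Ctdsp2 and Ctdsp1), Mir26a-1 had 119 and 19.6 CPM and Mir26a-2 had 39.8 and 20.4 CPM in replicates 1 and 2. Mir26b, whose mature sequences stand at no other gene, had 3466 and 6937 CPM. As with Mir103 and Mir107, the gene with mature sequences of its own was higher than the 2 that share an arm. The neuronal pair Mir128-1 and Mir128-2 shares an arm too, yet stood at 4364 and 7285 CPM and at 1481 and 2323 CPM. Mir16-1 and Mir16-2 lay between, at 296 and 421 CPM and at 51.1 and 68.5 CPM. Of 94 genes with such a shared mature sequence in RefSeq, 45 (47.9%) were detected and 39 had no count, with a median of 1.47 CPM. Of 924 genes with mature sequences of their own, 336 (36.4%) were detected and 324 had no count, with a median of 0.783 CPM. Between the libraries, 10 of 47 tested genes with a shared sequence passed the exact binomial test as higher in replicate 1 and 18 as higher in replicate 2, beside 25.2% and 26.8% of the 507 genes.

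Other miRNA genes of metabolism were listed for comparison. Mir33, in the cholesterol regulator gene Srebf2, stood at 26.9 and 25.8 CPM in replicates 1 and 2 and did not pass the exact binomial test (adjusted p = 0.871). Mir378a, in the gene of the mitochondrial coactivator Ppargc1b, stood at 3181 and 3974 CPM and was higher in replicate 2 by the exact binomial test (adjusted p = 6.64e-60). Mir143, known from smooth muscle and fat, stood at 2833 and 3069 CPM, and the pancreatic Mir375 at 379 and 302 CPM. Mir802, a miRNA of liver and gut, had 1 and 2 counts and was not tested. The liver gene Mir122, given above, did not pass the exact binomial test (adjusted p = 0.0501). Of the 5 genes tested of these 6, 1 (Mir375) passed as higher in replicate 1 and 2 (Mir378a and Mir143) as higher in replicate 2, beside 25.2% and 26.8% of the 507 genes.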

How the data were processed

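The deposited tables hold raw counts of small RNA reads per annotated miRNA gene, on mm10 with GENCODE M21, per the accompanying text. The sources used here do not give the aligner, counter or read filters. Each table has 3 count columns (either strand, the strand of the gene, the opposite strand), identified from their totals, and 4 rows of reads given to no gene. Those rows, 72.5% of reads in replicate 1 and 64.7% in replicate 2, stayed out of library sizes and tests.

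CPM were counts on the gene's strand per 1000000 assigned counts. Of 1 group with 2 libraries no contrast with replication exists, so libraries were compared with a two-sided exact binomial test. It was Benjamini-Hochberg adjusted over genes that had 10 counts or more in sum (threshold 0.05). Its check on simulated data used Poisson counts with no added spread between libraries, so the check does not cover such spread. Scalings and dispersion came from edgeR 4.0.16 and DESeq2 1.42.0 in R 4.3.3. Hairpins were folded with RNAfold 2.7.2. Other steps used Python 3.11.15, scipy 1.17.1 and pandas 2.3.3. The members, lists and tests were chosen with earlier results of these data known. The text names the 3 genes, fixed lists of relatives and markers, and the 2 genes nearest in level to each. Mir497a and Mir124-2hg, also listed, matched no row. Of the listed markers, the myeloid genes summed to 1743 and 1640 CPM and the pancreatic to 402 and 306 in replicates 1 and 2. Endothelial genes summed to 11308 and 7829 CPM, all from Mir126a, since Mir126b had 0 counts on its strand. Erythroid genes summed to 75.4 and 192 CPM. Of these, Mir451a (41.9 and 162 CPM) and Mir144 (8.96 and 16.8) were higher in replicate 2, and Mir486 (24.5 and 12.9) in replicate 1.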

Additional observations from a re-analysis of the deposited data

How the results depend on the processing

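All log2 ratios of the 3 genes kept their sign under every alternative run. With a negative binomial spread, 2 genes in place of 264 differed between the libraries, and the ratios of 2.22 (Mir103-1), 1.66 (Mir107) and 0.54 (Mir103-2) no longer passed. That spread was estimated from the difference between the same libraries, so the loss of calls was largely built in. For Mir103-2 the ratio did not pass at 0.51 with DESeq2 size factors, 0.52 in the column that ignores strand, 0.44 without the 10 most abundant genes in the denominator or 0.17 per read of any kind. The cause was not tested. In the exact binomial test Mir103-2 passed at 0.56 with TMM-scaled totals (adjusted p = 0.0345) and at 0.59 per mapped read (adjusted p = 0.0239). Its adjusted p ranged from 0.0239 to 1.0 over the alternatives of the exact binomial and edgeR tests. Leaving the 10 most abundant genes out of the denominator raised mean levels to 13.6 CPM (Mir103-1), 51.1 (Mir103-2) and 3384 (Mir107), by construction. Per 1000000 reads of any kind Mir103-2 stood at 7.65. Without either replicate in turn, the mean is the other library's value: 2.35 to 11.1 CPM for Mir103-1, 20.4 to 29.5 for Mir103-2 and 802 to 2534 for Mir107. The shares were 97.2% to 98.4% for Mir107 and 10.3% to 27.3% for Mir103-1. No paired analysis was possible because there is 1 group. Mir103-1 rests on 6 counts in replicate 2, and reads set aside for mapping to several places are missing from both Mir103 genes at any depth.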
